A study of Rattus norvegicus with 16 samples.

Results

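Transcripts of the oxidative phosphorylation complexes were examined in cultured rat islets with and without an adenovirus. The genes were taken by their symbols, those starting with Nduf, Sdh followed by a, b, c or d, Uqcr, Cyc1, Cox followed by 4 to 8, or Atp5, and 91 of the 14217 genes on the arrays met this rule. By complex they comprised 42 genes of complex I, 8 of complex II, 8 of complex III, 17 of complex IV (1 of them the pseudogene Cox6c-ps1) and 16 of complex V. All islets came from male Wistar rats aged 8 weeks and were kept in RPMI with 8 mM glucose and 10% serum. Untreated islets gave 5 arrays and are listed at 48 h like the others. The others met an adenovirus for 18 h, either 1 that expresses β-galactosidase and serves as control (Adβgal, n = 6) or 1 that expresses Nkx6.1 (AdNkx6.1, n = 5), and were collected 48 h after its addition. Nkx6.1 is a homeodomain transcription factor of beta cells. The labels call the arrays biological replicates but do not say whether each came from separate animals or pooled islets, so p-values measure the spread between these arrays. Both viruses were used at the same stated particle concentration, but the infectious titres and the levels of the delivered proteins were not compared. All islet cell types that take up virus could carry it.

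Oxidative phosphorylation passes electrons from NADH through complex I, or from succinate through complex II, to ubiquinone, then through complex III and cytochrome c to complex IV, which reduces oxygen. Complexes I, III and IV pump protons across the inner mitochondrial membrane, and complex V, the ATP synthase, uses the gradient to make ATP. In beta cells the rise of ATP after glucose closes potassium channels and starts insulin secretion. The genes examined here are nuclear; the mitochondrial genome encodes further core subunits. In complex IV and in a few other places the genome holds alternative isoforms that are known from heart, skeletal muscle, lung or testis.

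Each gene is given by its log2 intensity on 1 probe set, that of highest mean over the 16 arrays, and levels are not compared between genes. Array medians of the intensity ran from 264.8 to 296.2, and the lowest deposited intensity was 6.25, so no marker was at 0. The insulin transcripts Ins1 and Ins2 had untreated means of 14.75 and 14.82. The spread was widest with Adβgal: the median SD of the 91 genes was 0.14 there, against 0.08 untreated and 0.09 with AdNkx6.1, and it was 0.23, 0.12 and 0.15 over all genes. The probe set for Nkx6-1 was lower with AdNkx6.1 than with Adβgal, by 0.46 on the log2 scale (limma adjusted p = 0.0023), and whether it reads the delivered sequence was not tested. Adβgal replicates 4, 5 and 6 stood apart by acinar markers (enzymes of exocrine pancreas), which averaged 1.9, 1.41 and 1.44 above the untreated mean over 22 genes, so main counts are also given without these 3 arrays, an alternative chosen after seeing the data.

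The comparison of AdNkx6.1 with Adβgal asks what the Nkx6.1 virus changed beyond the control virus. The differences were small for most of these transcripts, and a few tissue isoforms moved further. Of the 91 genes, 21 rose and 3 fell at an adjusted p below 0.05 in limma, 26.4% in all, while 25% of all 14217 genes passed, 16.6% upward and 8.48% downward. The share that passed was thus near the background and is not a result about these genes. The change was positive in 69 of the 91 (75.8%, against 52.8% of all genes), with a median log2 change of 0.09 against 0.02. That median was 0.03 without Adβgal replicates 4, 5 and 6 (0.02 over all genes) and 0.03 after centring each array on the median of all genes (-0.05 over all genes). A change of at least 1.5-fold past the threshold was reached by 2, Cox4i2 and Cox7a1, where 10.1% of all genes reached it. The groups did not overlap in 15 genes that were above and 2 that were below, against 10.4% and 3.78% of all genes. With that centring the split became 8 higher and 6 lower, and 13 of the 24 genes no longer passed: Atp5if1, Atp5mpl, Atp5pd, Cox4i1, Cox5a, Cox5b, Cox6a1, Ndufs8, Ndufv1, Sdhb, Uqcr10, Uqcr11 and Uqcrh. Without Adβgal replicates 4, 5 and 6 it was 11 higher and 4 lower, with 10 of the 24 lost (Atp5pd, Cox4i1, Cox5b, Ndufa4l2, Ndufb7, Ndufs8, Ndufv1, Sdhb, Uqcr10 and Uqcr11). Without AdNkx6.1 replicate 4, or without replicate 5, 15 genes passed. In islets as a whole, fewer cells of a type and less RNA per cell cannot be told apart.

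**Figure D1:**
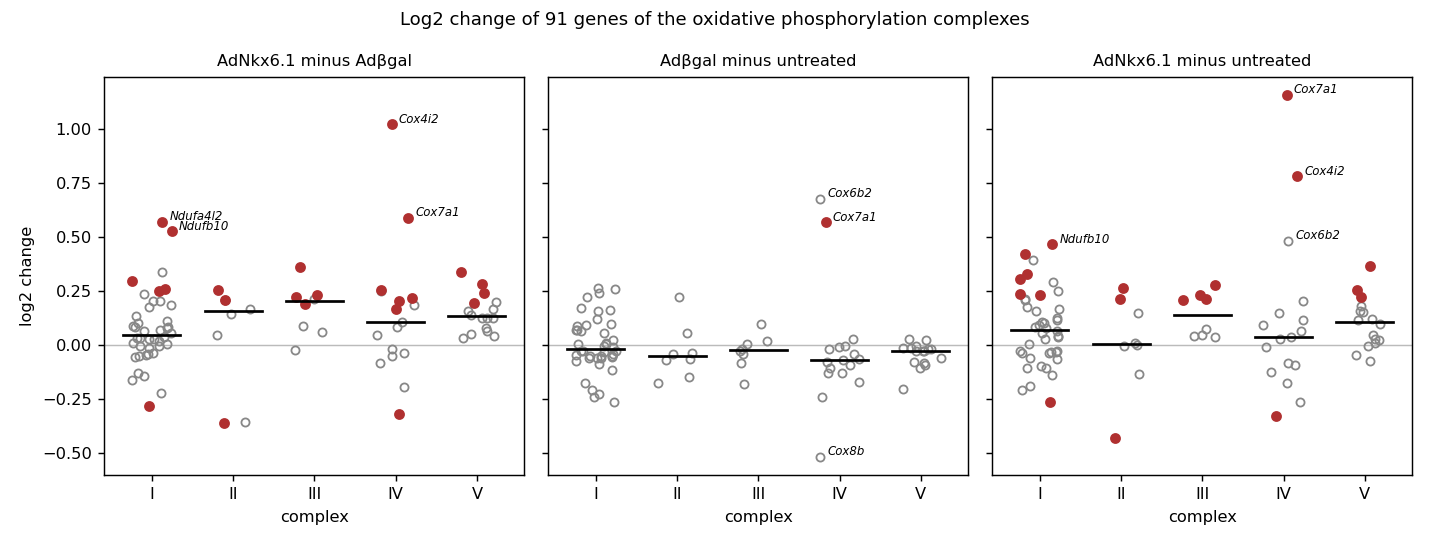
Log2 change of each of the 91 genes (vertical axis) by complex (horizontal axis), in 1 panel per comparison; filled points passed a limma adjusted p of 0.05, open points did not, and bars are medians. With AdNkx6.1 against Adβgal the medians ran from 0.05 in complex I to 0.20 in complex III, and with each array centred on the median of all genes that of complex I became -0.01; without Adβgal replicates 4, 5 and 6 they ran from 0 in complex I to 0.13 in complex III.

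The genes were also set apart by role, with the roles assigned when the values were already known. Without assembly factors, tissue isoforms, Ndufa4l2 and the pseudogene, 73 genes were left. They are the ubiquitous subunits with the inhibitor Atp5if1 and the supercomplex factor Cox7a2l. Of these, 17 rose and 0 fell (23.3%, against 25% of all genes, 16.6% upward and 8.48% downward). Changes were positive in 61 (83.6%, against 52.8% of all genes), with a median of 0.10 against 0.02. An unadjusted p below 0.05 in limma was reached by 21 of the 73, a smaller share than the 5150 of all 14217 genes. The role groups were not counted again after centring or without Adβgal replicates 4, 5 and 6. The 10 assembly factors of complexes I and II had 1 that rose and 2 that fell (30%, against 25% of all genes), with a median of -0.15. The 34 assembly factors outside the symbol rule, counted below, had a median of -0.01. Of the 6 tissue isoforms of complex IV, 2 rose and 1 fell (33.3% and 16.7%, against 16.6% and 8.48% of all genes). Among brighter genes, with a mean log2 intensity of at least 11, 18 of 76 rose and 0 fell, against 15.9% and 8.94% of 4498 such genes in all. The share that passed was 23.7%, near the 24.8% of such genes. An unadjusted p below 0.05 in limma was reached by 24 of the 76, a smaller share than the 1659 of the 4498.

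Promoters of members are shown to place the shared sequence features that respiratory genes are known for, the sites of NRF1 (searched as the capitals in Atp5mpl, with any base in the sixth place), of ETS factors such as GABP (CCGGAAG), of YY1 (AAGATGGC) and of the hypoxia-inducible factors (HRE, ACGTG). The RefSeq promoter table of build GRCr8, which spans 250 bases before to 50 after each start, held 82 of the 91 genes, searched on both strands. In the 4 below, which are the 300 bases for Uqcrh (chr5:134790833-134791132, minus strand), Atp5mpl (chr6:136845591-136845890, minus strand), Ndufa4l2 (chr7:65241919-65242218, plus strand) and Cox7a1 (chr1:94568966-94569265, plus strand), capitals mark an ETS match at -83, an NRF1 match at -60, a YY1 match at -1 and no match, in that order. They were chosen because each gene rose with AdNkx6.1 and because they differ in the motif they hold. The YY1 match of Ndufa4l2 runs across the start and includes the letters ATG. Whether these letters are a start codon, and the match thus partly coding sequence, was not tested.
Uqcrh: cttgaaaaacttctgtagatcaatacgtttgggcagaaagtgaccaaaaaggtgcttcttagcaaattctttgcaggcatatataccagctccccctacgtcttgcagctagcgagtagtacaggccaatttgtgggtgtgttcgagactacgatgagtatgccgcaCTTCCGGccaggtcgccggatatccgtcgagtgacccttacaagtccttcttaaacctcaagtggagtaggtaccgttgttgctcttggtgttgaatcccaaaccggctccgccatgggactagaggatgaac
Atp5mpl: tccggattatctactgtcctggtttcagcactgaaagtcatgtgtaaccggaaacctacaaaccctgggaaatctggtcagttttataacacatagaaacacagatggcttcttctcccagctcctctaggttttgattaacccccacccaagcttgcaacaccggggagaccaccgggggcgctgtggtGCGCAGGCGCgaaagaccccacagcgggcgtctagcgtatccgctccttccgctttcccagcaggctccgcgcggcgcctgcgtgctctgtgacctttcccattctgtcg
Ndufa4l2: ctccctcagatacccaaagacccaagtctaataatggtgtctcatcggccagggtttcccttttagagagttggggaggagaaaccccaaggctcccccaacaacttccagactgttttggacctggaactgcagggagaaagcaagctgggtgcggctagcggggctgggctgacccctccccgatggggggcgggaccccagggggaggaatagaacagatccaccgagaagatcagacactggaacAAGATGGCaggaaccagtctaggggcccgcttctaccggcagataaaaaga
Cox7a1: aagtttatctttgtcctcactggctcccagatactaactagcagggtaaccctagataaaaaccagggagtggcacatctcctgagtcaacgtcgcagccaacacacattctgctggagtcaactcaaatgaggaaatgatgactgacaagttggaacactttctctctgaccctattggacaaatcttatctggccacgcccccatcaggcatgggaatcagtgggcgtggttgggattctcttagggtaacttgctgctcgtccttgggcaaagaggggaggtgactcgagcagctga

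The NRF1 letters were in 17 of 82 member promoters (20.7%) against 4.25% of all 33469 and 5.67% of the 21851 protein-coding ones. ETS letters were in 25 (30.5%, against 8.75% of all and 10.7% of protein-coding ones). YY1 letters were in 17 (20.7%, against 3.17% and 3.67%) and HRE letters in 21 (25.6%, against 19.3% and 19.8%). No match of one motif overlapped that of another. The median GC content was 56.0% in members and 55.0% in protein-coding promoters. Of the 21 genes that rose with AdNkx6.1, 16 had a promoter here, and Atp5pd, Cox4i2, Cox6a1, Cyc1 and Uqcr11 had none. In these 16, ETS letters stood in 7, NRF1 letters in 1, YY1 letters in 1 and HRE letters in 4. In the 63 of genes that did not pass they stood in 17, 15, 16 and 17, in that order. A match describes these letters only.

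In complex I, 5 of 42 genes rose and 1 fell (14.3%, against 25% of all genes), with a median of 0.05. The split was 3 and 3 after centring (median -0.01) and 1 and 1 without Adβgal replicates 4, 5 and 6 (median 0). Complex I holds core subunits that carry flavin and iron-sulfur clusters and many accessory subunits around them. Both core genes that passed were higher with AdNkx6.1: Ndufv1, the flavoprotein that oxidises NADH, by 0.30 ± 0.10 (SE; limma adjusted p = 0.0335), and Ndufs8, an iron-sulfur subunit, by 0.25 ± 0.07 (adjusted p = 0.0176, limma). Of the 28 accessory subunits, Ndufb10 and Ndufb7 rose and the other 26 did not pass.

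Ndufb10, a membrane-arm subunit, had log2 intensities of 13, 12.75, 12.78, 12.85 and 12.96 untreated, from 12.17 to 13.09 with a median of 12.99 with Adβgal, and 13.21, 13.16, 13.38, 13.52 and 13.41 with AdNkx6.1. All AdNkx6.1 arrays lay above all Adβgal arrays, 2 of which (replicates 4 and 5) were low at 12.55 and 12.17. The change was 0.53 ± 0.14 (1.44-fold, limma adjusted p = 0.0132), and 0.28 without Adβgal replicates 4, 5 and 6 (adjusted p = 0.029, limma). Ndufb7, another membrane-arm subunit, rose by 0.26 ± 0.07 (limma adjusted p = 0.011) and lost the call without those 3 arrays. The Ndufb7 call was also lost with the replicate number as a block (limma adjusted p = 0.063). Ndufaf7, an arginine methyltransferase that acts in assembly, was at 10.09 to 10.18 with Adβgal (median 10.16) and at 9.93, 9.93, 9.54, 10.01 and 9.91 with AdNkx6.1. These groups did not overlap, and the change was -0.28 ± 0.08 (limma adjusted p = 0.0115). It ran from -0.32 to -0.2 over the fits without 1 array, and the call was lost with the replicate number as a block (limma adjusted p = 0.05). Ndufv1 lost its call without Adβgal replicate 5 or AdNkx6.1 replicate 1, 4 or 5 (limma adjusted p up to 0.1), and Ndufs8 lost it without AdNkx6.1 replicate 4 (0.054).

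Ndufa4 carries a complex I name although its product is known as a subunit of complex IV, and Ndufa4l2 is its hypoxia-inducible paralog. Ndufa4 differed by 0.06 ± 0.06 (limma adjusted p = 0.501), and the difference was 0 after centring on the median. Ndufa4l2 was at 9.2, 9.12, 9.14, 9.1 and 9.19 untreated, at 8.45 to 9.77 (median 8.82) with Adβgal, and at 9.63, 9.78, 9.29, 9.54 and 9.51 with AdNkx6.1. The untreated arrays were tightly grouped, the Adβgal arrays were wide and reached into the AdNkx6.1 range. It rose by 0.57 ± 0.18 (1.48-fold, limma adjusted p = 0.0322), but the call was lost when any of 8 of the 16 arrays was left out (adjusted p 0.054 to 0.077, limma). Without Adβgal replicates 4, 5 and 6 the change was 0.35 (limma adjusted p = 0.25).

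Complex II, succinate dehydrogenase, links the TCA cycle to the chain, and 3 of its 8 genes passed, 2 higher and 1 lower (37.5%, against 25% of all genes), with a median of 0.16. After centring, and without Adβgal replicates 4, 5 and 6, 1 was higher and 2 were lower, with medians of 0.10 and 0.06. The catalytic core gave means (± SD here) of 12.49 ± 0.18 with Adβgal and 12.64 ± 0.11 with AdNkx6.1 for Sdha, the flavoprotein. Sdhb, the iron-sulfur subunit, rose from 12.35 ± 0.12 to 12.56 ± 0.10 (mean ± SD, limma adjusted p = 0.0352). The membrane anchors Sdhc and Sdhd did not pass, with changes of 0.21 ± 0.08 and 0.05 ± 0.08 (SE, limma adjusted p = 0.0756 and 0.704). Its assembly factors moved apart. Sdhaf1, which helps insert the iron-sulfur clusters of Sdhb, was at 11.33 to 11.67 with Adβgal (median 11.58) and at 11.73, 11.74, 11.81, 11.8 and 11.88 with AdNkx6.1, and rose by 0.26 ± 0.07 (limma adjusted p = 0.00842). Sdhaf3, which also acts on the Sdhb clusters, was at 10.13, 10.03, 9.84, 9.93 and 9.86 untreated, 9.66 to 10.23 (median 9.85) with Adβgal, and 9.62, 9.52, 9.39, 9.64 and 9.48 with AdNkx6.1. AdNkx6.1 lay below both other groups without overlap, and the change from Adβgal was -0.36 ± 0.10 (limma adjusted p = 0.0124). Sdhb lost its call when any of 6 arrays (Adβgal replicates 1 and 4, AdNkx6.1 replicates 1, 2, 4 and 5) was left out, at adjusted p 0.059 to 0.099 in limma.

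An unadjusted p below 0.05 in limma was reached by 5 of the 8 genes of complex III, and by 5150 of all 14217 genes. Complex III takes electrons from ubiquinol, and 4 of its 8 genes rose and 0 fell (50%, against 16.6% of all genes upward), with a median of 0.20. After centring 1 rose (median 0.14), and 2 rose without Adβgal replicates 4, 5 and 6 (median 0.13), with the replicate number as a block, and in a fit of only these groups. Per array, the mean over the 8 genes, as a log2 difference from the untreated mean, ran from -0.09 to 0.05 with Adβgal and from 0.10 to 0.22 with AdNkx6.1, with no overlap. This was not particular to complex III: complex V did not overlap either, at -0.22 to 0.03 and 0.04 to 0.19. Nor did the lists of glycolysis and hypoxia-inducible genes counted below. Such means were not computed after centring. Cyc1, cytochrome c1, which hands electrons to cytochrome c, was at 12.05, 12.07, 12.06, 11.95 and 11.9 untreated, 11.71 to 12.08 (median 11.95) with Adβgal, and 12.35, 12.25, 12.26, 12.22 and 12.34 with AdNkx6.1. AdNkx6.1 stood above both other groups, and the rise over Adβgal was 0.36 ± 0.07 (1.28-fold, limma adjusted p = 0.00109). Uqcrh, the hinge protein that sits between cytochromes c1 and c, was at 13.69 to 13.9 with Adβgal (median 13.79) and at 13.97, 14.01, 13.99, 14.11 and 14.02 with AdNkx6.1. It rose by 0.23 ± 0.06 with no overlap of these groups (limma adjusted p = 0.0068). Uqcr10 and Uqcr11, small subunits, rose by 0.23 ± 0.08 and 0.19 ± 0.06 (limma adjusted p = 0.049 and 0.0404), and each lost its call when any of at least 10 of the 16 arrays was left out. Uqcrfs1, the Rieske protein, differed by 0.06 ± 0.05 (limma adjusted p = 0.41).

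In complex IV, cytochrome c oxidase, 6 of 17 genes rose and 1 fell (41.2%, against 25% of all genes, 16.6% upward and 8.48% downward), with a median of 0.11. The split was 2 and 1 after centring (median 0.04) and 4 and 1 without Adβgal replicates 4, 5 and 6 (median 0.06). The isoforms Cox4i2 and Cox7a1 had the 2 largest changes of the 91 genes. Cox4i2 is the isoform of subunit 4 known from lung and from low oxygen. It was at 9.67, 9.79, 9.94, 9.79 and 9.47 untreated, at 8.71 to 10.26 (median 9.43) with Adβgal, and at 10.5, 10.81, 10.63, 10.36 and 10.28 with AdNkx6.1. The AdNkx6.1 arrays were above every other array. The rise was 1.02 ± 0.20 (2.03-fold, limma adjusted p = 0.00121), and 0.93 without Adβgal replicates 4, 5 and 6 (adjusted p = 0.015, limma). The ubiquitous form Cox4i1 rose by 0.17 ± 0.06 (limma adjusted p = 0.0488), a call lost when any of 14 of the 16 arrays was left out. Cox7a1, the heart and muscle isoform of subunit 7a, was at 7.81, 7.7, 7.77, 7.64 and 7.44 untreated, 7.98 to 8.4 (median 8.28) with Adβgal, and 8.84, 8.65, 8.62, 9.27 and 8.75 with AdNkx6.1. All 3 groups stood apart from each other in this order. Its rise over Adβgal was 0.59 ± 0.11 (1.5-fold, limma adjusted p = 0.00121). The partner Cox7a2 was read only by a probe set shared with Cox7a2l2, which was not tested and averaged 13.94 with Adβgal and 13.91 with AdNkx6.1.

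Cox6a2, the muscle isoform of subunit 6a, moved the other way. It was at 11.06, 10.94, 11.13, 10.79 and 10.83 untreated, 10.69 to 11.21 (median 10.97) with Adβgal, and 10.77, 10.48, 10.48, 10.77 and 10.62 with AdNkx6.1. The change was -0.32 ± 0.10 (limma adjusted p = 0.0334), with overlap of the groups, and the call was lost when any of 7 arrays (Adβgal replicates 1 to 4, AdNkx6.1 replicates 2, 3 and 5) was left out, at adjusted p 0.05 to 0.081 in limma. Its ubiquitous partner Cox6a1 rose by 0.22 ± 0.05 (limma adjusted p = 0.00645) and did not overlap Adβgal, at 13.26, 13.29, 13.32, 13.37 and 13.35 against 12.95 to 13.18 (median 13.11). Cox5a and Cox5b, ubiquitous nuclear subunits, rose by 0.25 ± 0.07 and 0.21 ± 0.07 (limma adjusted p = 0.0106 and 0.0475), the second being lost when any of 10 arrays was left out. Cox8b, the muscle form, had a difference of 0.25 ± 0.26 (limma adjusted p = 0.532) that became -0.14 without Adβgal replicates 4, 5 and 6. The other isoforms Cox6b2 and Cox7b2 did not pass.

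**Figure D2:**
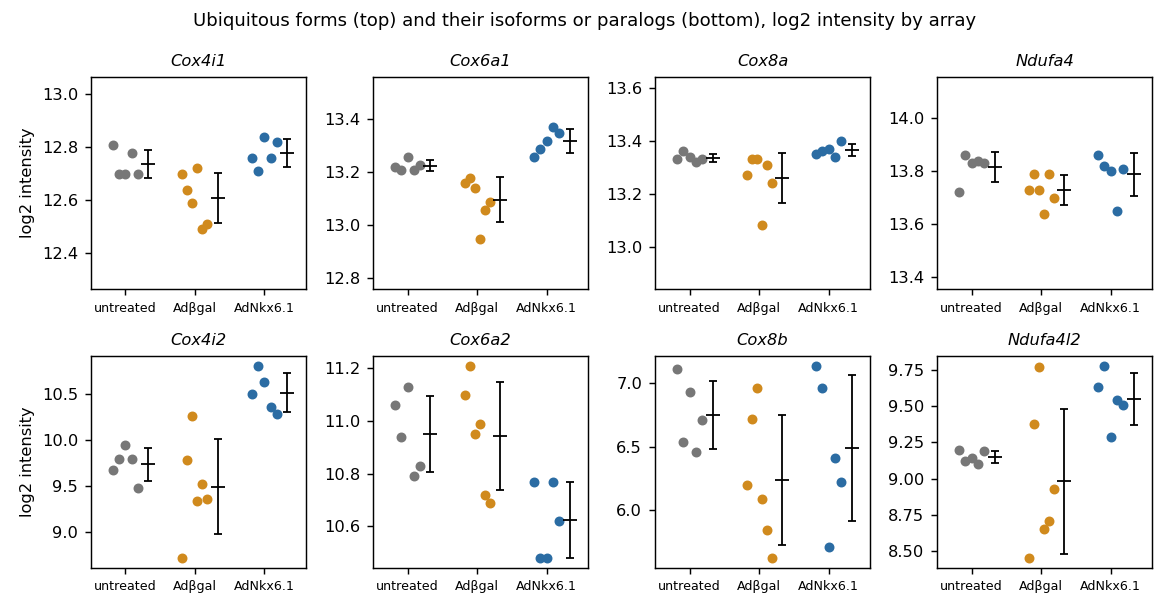
Log2 intensity on each array (points) in the 3 groups, with mean and SD (bars), for Cox4i1, Cox6a1, Cox8a and Ndufa4 (top) and their isoforms or paralogs Cox4i2, Cox6a2, Cox8b and Ndufa4l2 (bottom). Cox4i2 lay at 10.28 to 10.81 with AdNkx6.1, above all other arrays, while Cox6a2 was lower and Cox8b overlapped in all groups.

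Cox4i2 and Ndufa4l2 are also known from cells around blood vessels, and their levels varied within the Adβgal group, as did vessel and stellate markers. On Adβgal replicate 1 they were lowest, at 8.71 and 8.45, and on replicate 3 highest, at 10.26 and 9.77. The endothelial markers (13 of 15 measured) averaged -0.99 and 0.77 on those arrays and the stellate and fibroblast markers (15 of 15) -0.41 and 0.21, each as a log2 difference from the untreated mean. The highest endothelial mean, 1.47, was on Adβgal replicate 5, where Cox4i2 was 9.52 and Ndufa4l2 was 8.71. In AdNkx6.1 arrays these lists ran from -0.29 to 0.73 and from -0.09 to 0.08. No endothelial marker passed in AdNkx6.1 against Adβgal in limma, with 0 at an unadjusted p below 0.05. In the stellate list 2 fell (13.3%, against 8.48% of all genes). The part of these cells in the 2 results was not tested.

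All 16 genes of complex V, the ATP synthase, had positive changes on the probe sets tested, against 52.8% of all genes. Probe sets not tested went both ways: -0.56 on a dim one of Atp5me and -0.18 for Atp5mc1 with Atp5mc1l1, but 0.29 for Atp5po and 0.23 for Atp5mc2 with Atp5mc2l1. On the tested ones 4 of the 16 rose (25%, the same share as among all genes) and the median was 0.13. After centring 1 rose (median 0.07), and without Adβgal replicates 4, 5 and 6 there were 3 (median 0.04). Atp5f1d, the delta subunit of the central stalk, was at 13.42, 13.02, 13, 13.19 and 13.17 untreated, 13.06 to 13.28 (median 13.22) with Adβgal, and 13.46, 13.37, 13.52, 13.71 and 13.57 with AdNkx6.1. It rose over Adβgal by 0.34 ± 0.08 (1.27-fold, limma adjusted p = 0.00623), without overlap. Atp5mpl, a small membrane subunit, was at 12.58 to 12.69 (median 12.64) with Adβgal and at 12.82, 12.83, 12.92, 13.02 and 12.83 with AdNkx6.1, and rose by 0.24 ± 0.06 (limma adjusted p = 0.0068). Atp5pd, in the peripheral stalk, rose by 0.19 ± 0.06 (limma adjusted p = 0.0307), a call lost without AdNkx6.1 replicate 1, 2, 4 or 5 (0.051 to 0.07). The catalytic subunits Atp5f1a and Atp5f1b did not pass, with differences of 0.16 ± 0.08 and 0.03 ± 0.06 (limma adjusted p = 0.148 and 0.748). Atp5if1, the inhibitor of the synthase, rose by 0.28 ± 0.07 on its brightest probe set (limma adjusted p = 0.00936), but its other 2 probe sets gave -0.09 and -0.20, so the direction depends on the probe set.

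**Figure D3:**
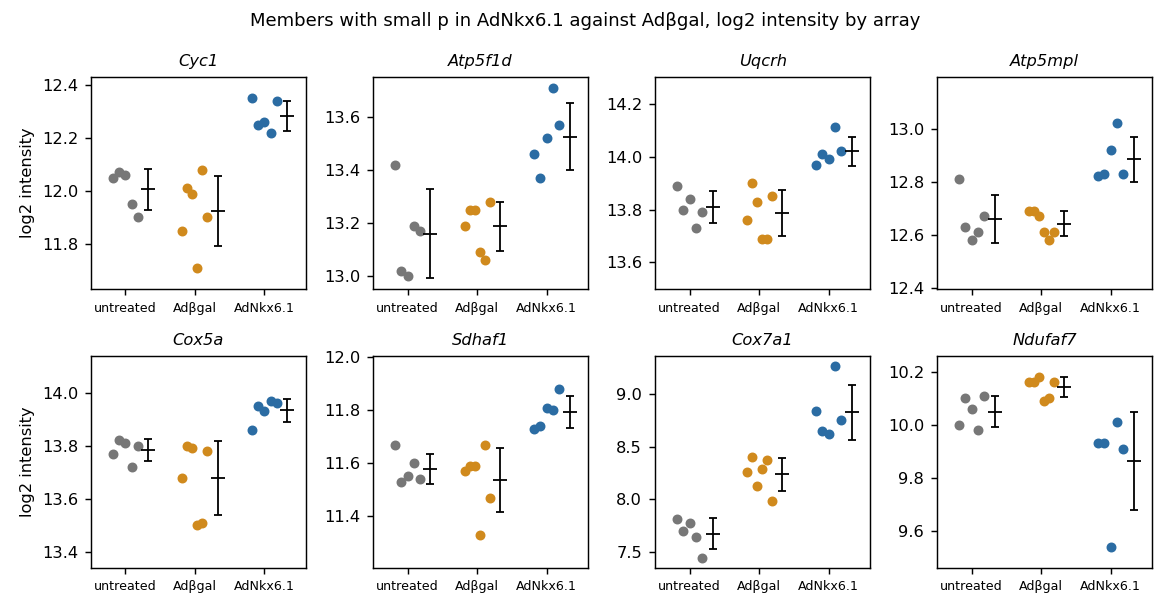
Log2 intensity on each array (points) in the 3 groups, with mean and SD (bars), for Cyc1, Atp5f1d, Uqcrh, Atp5mpl, Cox5a, Sdhaf1, Cox7a1 and Ndufaf7. In the first 7, all AdNkx6.1 arrays lie above the Adβgal arrays, and in Ndufaf7 below; with each array centred on the median of all genes, Uqcrh, Atp5mpl and Cox5a no longer passed.

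As a mean over all 91 genes per array, as a log2 difference from the untreated mean, the untreated arrays ran from -0.05 to 0.10, Adβgal from -0.14 to 0.08 and AdNkx6.1 from 0.05 to 0.17. Adβgal replicates 5 and 6 were the lowest, at -0.14 and -0.06. The marker counts that follow stand beside 16.6% of all genes upward and 8.48% downward in AdNkx6.1 against Adβgal. The acinar list fell in 3 of 22 markers with AdNkx6.1 against Adβgal, and ran from -0.77 to 1.9 with Adβgal and from -0.89 to 0.65 with AdNkx6.1. In the leukocyte list 1 of 21 rose and 1 fell, with a range of -0.20 to 0.81 and of -0.35 to 0.17. Beta cell markers, with 2 of 11 lower, ran from -0.35 to -0.16 and from -0.48 to -0.37, and markers of other islet endocrine cells, with 6 of 10 lower, from -0.33 to 0.09 and from -0.81 to -0.50. Duct markers had 4 of 10 higher, from -0.22 to 0.33 with Adβgal and from 0.04 to 0.33 with AdNkx6.1. The part of these cells in the changes of the 91 genes was not tested.

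**Figure D4:**
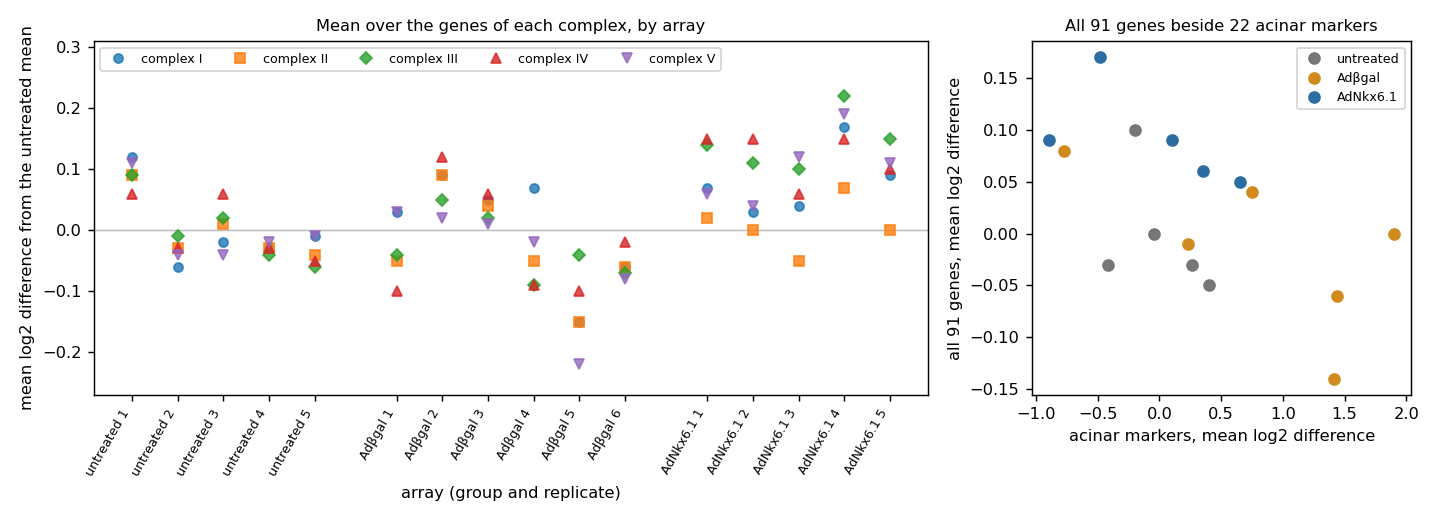
Left, the mean over the genes of each complex (symbols) for each array, as a log2 difference from the untreated mean; right, the mean of all 91 genes against that of 22 acinar markers, 1 point per array. The complex III means of the AdNkx6.1 arrays (0.10 to 0.22) lie above those of all Adβgal arrays (-0.09 to 0.05). Those of complex V do so too (0.04 to 0.19 against -0.22 to 0.03). Adβgal replicates 4, 5 and 6 have the highest acinar means.

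Adβgal against untreated asks what a control virus did by itself, and these transcripts hardly differed. An unadjusted p below 0.05 in limma was reached by 13 of the 91, a smaller share than the 3543 of all 14217 genes. Cox7a1 alone passed, 1 of 91 (1.1%), where 7.01% of all genes passed, 2.84% upward and 4.17% downward. It rose by 0.57 ± 0.11 (1.48-fold, limma adjusted p = 0.00855), and no member passed with a change of 1.5-fold or more, which 2.57% of all genes did. Its groups did not overlap, as in 2.05% of all genes upward. Ndufv3 and Cox6a1 lay below the untreated arrays without overlap, as 4.83% of all genes did, but did not pass, with changes of -0.26 ± 0.09 and -0.13 ± 0.05 (limma adjusted p = 0.0839 and 0.157). A second gene passed without Adβgal replicate 2 or without untreated replicate 1.

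AdNkx6.1 against untreated shares the AdNkx6.1 arrays with the first comparison and the untreated arrays with the second, so its calls add no independent support. Here 17 genes rose and 3 fell (22%, against 30.7% of all genes), and the groups were apart in 22 upward and 7 downward (17.4% and 14.6% of all genes). Without AdNkx6.1 replicate 5, or without untreated replicate 2, 12 genes passed, and centring gave 6 higher and 5 lower. Cox7a1 changed most, by 1.16 ± 0.12 (2.23-fold, limma adjusted p = 2.87e-06), beside its 0.59 over Adβgal. Cox4i2 rose by 0.78 ± 0.21 (1.72-fold, limma adjusted p = 0.00912) and Ndufb7 by 0.42 ± 0.07 (adjusted p = 0.00034, limma). Ndufa5 and Ndufb6, accessory subunits, rose by 0.33 and 0.23 (limma adjusted p = 0.0155 and 0.0125), calls that did not hold after centring. Cyc1 and Atp5f1d rose by 0.28 ± 0.07 and 0.37 ± 0.09 (limma adjusted p = 0.00798 and 0.00431). Sdhaf3 fell by 0.43 on the log2 scale (limma adjusted p = 0.00445), and Cox6a2 and Ndufv3 by 0.33 and 0.26 (adjusted p = 0.0305 and 0.0405, limma), the last of which was lost in the fit on another probe set, where its value was -0.12. The last 2 were each also lost when single arrays were left out, 6 for Cox6a2 and 9 for Ndufv3.

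Further probe sets bear on some of these genes. Ndufaf7 had a second probe set that was lower as well, by 0.34 on the log2 scale with AdNkx6.1, and a probe set shared by Cox5a and a second symbol was higher by 0.26, like the probe set tested for Cox5a. The other shared probe sets gave differences from -0.19, for Ndufa10 and Ndufa10l1, to 0.23, for Atp5mc2 and Atp5mc2l1, and near-identical copies cannot be told apart on such probe sets.

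Genes around the chain were counted from lists with AdNkx6.1 against Adβgal, beside 25% of all genes. In the TCA cycle and pyruvate dehydrogenase list, 6 of 18 rose and 1 fell: Ogdh by 0.41, Mdh2 by 0.39 and Pdhb by 0.30 (limma adjusted p = 0.00134, 0.00256 and 0.00231), against Pdha1, which fell by 0.32 on the log2 scale (adjusted p = 0.00065, limma). Among electron carriers and shuttles, 4 of 27 rose and 1 fell; Gpd1, the cytosolic arm of the glycerol phosphate shuttle, rose by 0.97 (limma adjusted p = 2.2e-05), and Coq3, of ubiquinone synthesis, fell by 0.31 on the log2 scale (limma adjusted p = 0.00853). Of 34 assembly factors outside the symbol rule 2 rose (Higd2a and Cox14) and 2 fell (Bcs1l and Tmem126b). Of 17 regulators of mitochondrial biogenesis 2 rose and 3 fell: Esrra, the estrogen-related receptor alpha, by 0.88, and the helicase Twnk by 0.55 (limma adjusted p = 0.0002 and 6.23e-05), against -0.70 for Nrf1, the nuclear respiratory factor (adjusted p = 0.00827, limma). In glycolysis and glucose transport 8 of 20 rose and 1 fell, led by Aldoc at 1.53 and Pdk2 at 0.85 (limma adjusted p = 0.000121 and 1.91e-05) with Pdk4 at -0.86 (0.000332). Of 18 hypoxia-inducible genes 7 rose, among them Ddit4 by 0.53, Egln3 by 0.62 and Slc2a1 by 0.41 (limma adjusted p = 0.000555, 0.00213 and 0.00239). Of 73 mitochondrial ribosomal proteins 13 rose and 3 fell, led by Mrps6 at 0.58 (limma adjusted p = 1.38e-05), and of 57 cytosolic ones 1 rose and 1 fell. The subunits encoded in mitochondria were named after their values were seen: COX1 and COX2 had differences of -0.14 and -0.04 (limma adjusted p = 0.411 and 0.712).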

How the data were processed

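The authors deposited 1 table of probe set intensity values, linear, from 6.25 to 35765, for 16 arrays. RMA is named in the submitters' processing notes; its version and the return to a linear scale are not given in the sources used here. The log2 of each deposited intensity was taken with no pseudocount. The labels give 5 replicates per condition in the protocol text and 6 Adβgal arrays, all used. Of 31099 probe sets, 57 were controls, 20826 had 1 gene symbol, 436 several and 9780 none; those with 1 symbol gave 14217 genes, each by its probe set of highest mean. All 91 member symbols matched the RefSeq table and none changed.

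limma 3.58.1 in R 4.3.3 fitted the 3 groups together (lmFit, contrasts.fit, eBayes), 2-sided, with Benjamini-Hochberg adjustment over 14217 genes and a threshold of 0.05. The script was tested on simulated data with the same spread in all groups, which does not cover the wider spread with Adβgal. The number of arrays limits precision. Tables used pandas 2.3.3, figures matplotlib 3.10.9. Members, lists and roles were chosen with earlier results of these data known. Array values are given for members with the smallest p and for isoform pairs, and up to 4 genes of other lists were named. Detection calls were not used here. Whether arrays of the same replicate number, 1 to 5 in each group, came from the same islets is not known. Same-number correlations of deviations from the group means ran from -0.39 to 0.25. They cannot settle this, because such deviations also carry differences between single arrays. Lists counted were the TCA cycle, carriers, assembly factors, biogenesis regulators, glycolysis, hypoxia, ribosomal proteins, and markers of beta, other endocrine, acinar, duct, endothelial, stellate and leukocyte cells.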

Additional observations from a re-analysis of the deposited data

Results flagged for a closer look

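In groups of 5 or 6 arrays, 1 array lay far from the rest in 6 of the 81 groups of values tested. Chance gives about 1 in 20 for independent groups, but these share arrays and genes. Ndufa4 was 13.72 on untreated replicate 1 against 13.83 to 13.86 on the others, and 13.65 on AdNkx6.1 replicate 4 against 13.8 to 13.86. The mean of complex I was 0.12 on untreated replicate 1 against -0.06 to -0.01, and that of complex V 0.11 against -0.04 to -0.01. Sdhd was 11.88 on Adβgal replicate 5 against 12.25 to 12.39. Ndufaf7 was 9.54 on AdNkx6.1 replicate 3 against 9.91 to 10.01.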

How the results depend on the processing

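Of the 24 genes that passed in AdNkx6.1 against Adβgal, 7 passed under all 26 alternatives run (Atp5f1d, Cox4i2, Cox7a1, Cyc1, Ndufb10, Sdhaf1 and Sdhaf3), and 14 without any 1 array; leaving out 1 array gave 15 to 25 genes, 1 to 2 for Adβgal against untreated and 12 to 24 for AdNkx6.1 against untreated. AdNkx6.1 against Adβgal gave 14 genes with the replicate number as a block, 14 after median centring, 14 in a fit of only these groups, and 15 without Adβgal replicates 4, 5 and 6. Adβgal against untreated gave 2 genes after quantile normalization and with array weights. AdNkx6.1 against untreated gave 13 with the replicate block, 11 after centring, 43 with array weights, 31 in a fit of only these groups and 30 without Adβgal replicates 4, 5 and 6. The block is a number shared across groups, and whether it marks shared islets is not known. Same-number arrays did not deviate together over all genes, and most arrays correlated best with an array of another number. Signs turned for Atp5if1 (0 with the mean of its probe sets, -0.2 with the most variable one, and 0 against untreated with that one), Ndufa4 (0 centred), Sdhd (-0.01 centred, -0.02 with array weights, -0.03 without Adβgal replicates 4, 5 and 6 and -0.02 to 0.08 over the fits without 1 array, the lowest without Adβgal replicate 5) and Cox8b (-0.08 with array weights, -0.14 without those 3 arrays), all against Adβgal unless stated. The cause of these changes was not tested. Values near background, such as Cox7b2 and Cox8b, and the wide Adβgal group limit what could be detected.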
